A study of Mus musculus with 22 samples.

Results

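The 6 libraries described here compared mouse CD8 T cells that carry a Tcaim knock-in, after 48 h of stimulation, with naive cells of the same 3 mice. They were chosen by label from 22 RNA-seq libraries: the 3 libraries labelled KI at 48 h and the 3 labelled KI and naive, all from the line Tcaim KI Cd4Cre with the genotype hocre. Each mouse gave a naive, a 24 h and a 48 h library. The mice are called mouse 1, mouse 3 and mouse 5 after the experiment in which they were used, and values for a gene follow that order. Mice 1 and 3 were male and mouse 5 was female, and their ages are not given in the sources used here. CD8 T cells were enriched from spleen and lymph nodes by magnetic depletion of the other cells. Naive cells were not stimulated, and the others were cultured on plate-bound anti-CD3 at 2 µg/ml with soluble anti-CD28 at 1 µg/ml. None of the libraries came from cells cultured without stimulation, so stimulation and time in culture cannot be told apart. The remaining libraries were wt mice of the same line (genotype wtcre, 3 mice, naive, 24 h and 48 h; mice 1 and 3 male, mouse 5 female) and 2 female mice of the line Tcaim KO Cd4Cre (genotype hocre, naive and 48 h). All of these genotypes carry the Cre transgene of the line name. Cre under Cd4 control is active in developing thymocytes before the CD4 and CD8 lineages part, so it acts in CD8 T cells too.

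Tcaim encodes a mitochondrial protein of T cells that has been described as a brake on activation. A naive CD8 T cell is a small, quiescent lymphocyte that depends on interleukin 7 and circulates through lymph nodes. Signals through the T cell receptor and CD28 take it through immediate early gene expression, growth and glycolysis into the cell cycle and effector differentiation, and they lower the genes of quiescence and recirculation.

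The deposited table gave whole-number read counts for 46603 genes, with 65364183 to 70457031 reads counted per naive library and 69000100 to 75343652 per library at 48 h. Counts per gene are given as CPM, the reads of a gene relative to all reads counted in its library, after scaling by TMM factors. The CPM of 1 gene can be compared between libraries as a share of the reads, but not between genes of different length. Amounts of RNA per cell were not measured, so a change in CPM need not be a change in transcripts per cell. Differences are log2 fold changes at 48 h against naive from edgeR's quasi-likelihood test with the mouse as a block, and p-values were adjusted by the Benjamini-Hochberg method over 21183 tested genes. Calls were made below an adjusted p of 0.05. Replicates were separate mice. With the mouse as a block, the p-values rest on how the changes over time varied between mice, not on differences in level. That spread was estimated over all 22 libraries, so wt and KO mice also entered it. In a principal component analysis of the 9 KI libraries, the first component (79.2% of the variance) placed the naive libraries between -98.3 and -91.3 and the 48 h libraries between 57.1 and 70.3. The second component, with 7.44%, set the libraries of mouse 5 (23.9 to 37.1) apart from those of mice 1 and 3 (-23 to -7.28).

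CD8 T cell transcripts were present in every library. Cd8a measured 1448, 1419 and 1435 CPM in the naive libraries and 908, 821 and 866 CPM at 48 h, and fell by 0.73 on the log2 scale (SE 0.144, edgeR adjusted p = 0.000737), and the groups did not overlap. Markers of other cells were present at lower summed levels and were mostly lower at 48 h. Over all tested genes 23.7% were called lower and 27.4% higher, and the counts of called markers stand against these shares. Of 6 B cell markers, 6 were called lower (summed 209 to 357.2 CPM naive, 103.1 to 219.4 CPM at 48 h), but 0 without the mouse block and 3 without mouse 3. Of 6 macrophage and monocyte markers 4 were called lower (95.37 to 190.3 CPM, then 25.95 to 33.25 CPM). Of 5 neutrophil markers 4 were called lower (5.001 to 19.43 CPM, then 0.02802 to 0.1648 CPM), with S100a8 at 0 in mice 1 and 5 and Retnlg at 0 in mice 1 and 3 at 48 h. Of 6 red cell and platelet markers, 5 were lower (2.5 to 51.17 CPM, then 0.3922 to 0.5252 CPM). Of 5 dendritic cell markers 3 were lower and Zbtb46 was higher (11.37 to 19.08 CPM, then 8.797 to 10.95 CPM). Of 5 NK cell markers 3 were lower and Eomes, which CD8 T cells also express, was higher, a call lost without mouse 3 (70.99 to 99.38 CPM, then 65.35 to 185.1 CPM). Of 4 gamma-delta T cell markers 2 were lower (39.93 to 58.28 CPM, then 19.39 to 25.38 CPM), and of 4 CD4 T cell markers 0 were called by edgeR over all libraries or by DESeq2 and 0 had an unadjusted p under 0.05 (46.4 to 64.22 CPM, then 45.69 to 83.12 CPM). With KI mice alone edgeR called 1 CD4 T cell marker higher, and with upper-quartile factors 1 lower and all 4 gamma-delta markers lower, while 0 gamma-delta markers were called with the genes of the deposited normalized table alone. Of 4 stromal markers tested 1 was lower (1.07 to 1.29 CPM, then 0.2101 to 0.9045 CPM), or 25.0%, near the share of all tested genes. In bulk samples, fewer cells of a type and less RNA per cell cannot be told apart, and the part of these cells in any result was not tested.

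Tcaim itself (ENSMUSG00000046603, GRCm38 chromosome 9, 122805539 to 122836334) was high in every KI library. It measured 138, 145 and 141 CPM in naive cells and 233, 229 and 260 CPM at 48 h. All 3 mice rose without overlap, by 0.77 (SE 0.198, edgeR adjusted p = 0.00491), from 53.4 ± 0.853 to 85.2 ± 5.55 FPKM in the authors' deposited values (mean ± SD, n = 3). In wt mice it measured 15.2, 14.6 and 14.7 CPM in naive cells and 9.2, 12 and 9.03 CPM at 48 h. Every KI library was thus above every wt library, as the labels have it. The counts are per gene, so reads from the knock-in and from the endogenous gene cannot be told apart. The KI change exceeded the wt change by 1.33 (edgeR adjusted p = 0.0427), a call lost without KI mouse 1, 3 or 5 and without wt mouse 1 or 5 (edgeR adjusted p = 0.133 to 0.278).

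At 48 h, 10813 of the tested genes (51.0%) were called, 5797 higher (27.4% of tested genes) and 5016 lower (23.7%). The counts of called members in the lists below stand against these shares. The change was at least 2-fold for 3295 of the higher and 2884 of the lower genes, and at least 4-fold for 1465 and 1290. All 3 mice moved in the same direction for 10760 of the called genes. In 14077 tested genes (66.5%) the CPM of the groups did not overlap. The median change over all tested genes was -0.03. The balance of higher and lower calls depended on the scaling: 53.6% of calls were higher with TMM factors, 49.3% with median-of-ratios factors, 49.8% with library size alone, 49.2% with DESeq2 and 42.3% with upper-quartile factors. The last of these moved the median of all genes to -0.21.

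The 8 largest rises included Nrn1, Asns and several genes that act in mitosis. Nrn1, a GPI-anchored protein first known from neurons, went from 0.534, 0.809 and 0.907 CPM to 138, 91.1 and 184 CPM, a log2 change of 7.48 (edgeR adjusted p = 2.19e-08). Asns, the asparagine synthetase, went from 0.415, 0.463 and 0.522 CPM to 46.7, 57.8 and 79.6 CPM (7.03, SE 0.52, edgeR adjusted p = 9.6e-08). Each library at 48 h was far above each naive library for both genes. Idi2, an isopentenyl diphosphate isomerase, changed by 8.09, the uncharacterized BC030867 by 7.06, and Cacng4, a calcium channel subunit, by 6.82. Pbk, Kif2c and Ska1, which act in mitosis, changed by 6.80, 6.79 and 6.78.

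The largest falls included genes better known from cells other than T cells. Slc40a1, the iron exporter of splenic macrophages, measured 8.63, 9.32 and 17.9 CPM in naive cells and 0.0292, 0 and 0.0981 CPM at 48 h, and it fell by 8.44 on the log2 scale. Vcam1, an adhesion molecule of macrophages and endothelium, fell by 6.44, Ace, the angiotensin-converting enzyme, changed by -7.87 and Jchain, the joining chain of plasma cells, changed by -5.29. The naive libraries differed from each other in these genes, and Ace ranged from 2.95 CPM in mouse 1 to 19.9 CPM in mouse 5. Ggt1, the gamma-glutamyl transferase, measured 85.7, 80.7 and 66.1 CPM in naive cells and 1.47, 1.73 and 1.09 CPM at 48 h (-5.76), and its naive libraries were close together. Fos, Oas2 and Gzma, which were also among the 8 largest falls, are described with their groups.

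**Figure D1:**
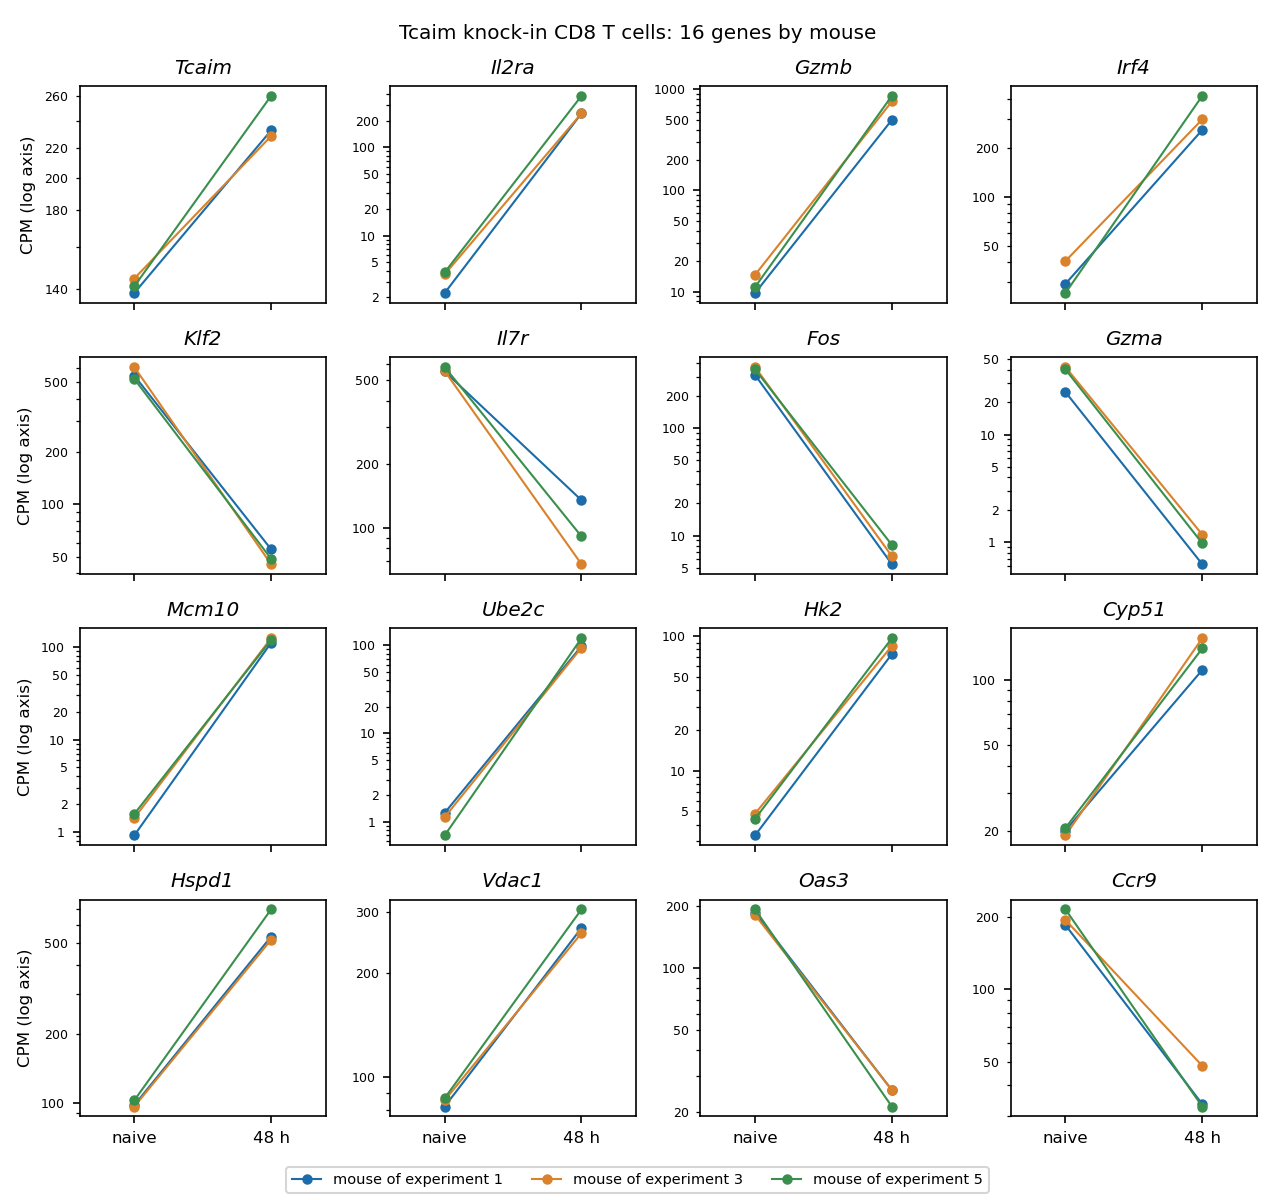
CPM (log axes, 1 range per panel) of 16 genes in the naive and 48 h KI libraries, with 1 line per mouse. Il2ra, Gzmb, Mcm10 and Ube2c rose in all 3 mice, Klf2, Il7r, Fos, Gzma, Oas3 and Ccr9 fell in all 3, and Tcaim rose from 138 to 145 CPM to 229 to 260 CPM.

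Genes of DNA replication rose together. Of 40 tested genes for replication licensing and the replication fork, 40 were called higher, with a median change of 2.23 against -0.03 for all tested genes. Mcm10, which helps to activate the replicative helicase (chromosome 2, 4989714 to 5012791), measured 0.919, 1.42 and 1.57 CPM in naive cells and 112, 125 and 120 CPM at 48 h. It rose by 6.52 (SE 0.333, edgeR adjusted p = 5.07e-09) with no overlap. Rrm2, the small subunit of ribonucleotide reductase, rose by 5.78 and Cdc6, which loads the helicase onto origins, by 5.39 (SE 0.328), from 1.88, 2.4 and 1.77 CPM to 81.4, 85.6 and 83.5 CPM. Rrm1, the large subunit, already stood at 36.4, 38.6 and 43 CPM in naive cells and reached 496, 464 and 534 CPM (3.67, SE 0.259). Naive and 48 h libraries did not overlap for Cdc6 or Rrm1.

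The promoters of these genes were read from RefSeq (GRCm38.p6), which had an entry for 32 of the 40. In the 250 bases before the annotated start, the E2F-type motif GCGGGAA was present on either strand in 8 of the 32 (25%). The same motif was in 902 of 12064 tested genes with an entry (7.48%), in 1184 of 27025 in the whole table (4.38%), in 9.25% of the genes called higher and in 5.84% of those called lower. Other motifs counted in the 32 were CACGTG in 4 (12.5%, against 9.19% of tested genes) and TGACGTCA in 1 (3.12%, against 2.83%). TGACTCA was in 0 (against 4.13%). In the other lists with entries the share with GCGGGAA ran from 0% to 21.4% (extracellular ATP and adenosine, 3 of 14). It was 20% in cholesterol synthesis (3 of 15). E2F proteins bind such sites in many genes of replication. A match here is a description of the sequence only. The 4 with the largest change among the 8 are shown 5′ to 3′ along the gene's strand to let the position of the motif be seen, with the motif or its reverse complement in capitals. Their windows are chr11:98907901-98908150 (plus strand) for Cdc6, chr7:102441445-102441694 (plus) for Rrm1, chrX:93632156-93632405 (minus) for Pola1 and chr10:128014965-128015214 (plus) for Prim1.
Cdc6: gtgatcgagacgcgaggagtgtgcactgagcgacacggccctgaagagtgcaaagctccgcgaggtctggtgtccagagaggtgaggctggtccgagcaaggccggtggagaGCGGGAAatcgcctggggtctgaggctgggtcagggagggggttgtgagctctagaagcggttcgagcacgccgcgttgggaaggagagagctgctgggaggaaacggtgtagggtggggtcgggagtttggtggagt
Rrm1: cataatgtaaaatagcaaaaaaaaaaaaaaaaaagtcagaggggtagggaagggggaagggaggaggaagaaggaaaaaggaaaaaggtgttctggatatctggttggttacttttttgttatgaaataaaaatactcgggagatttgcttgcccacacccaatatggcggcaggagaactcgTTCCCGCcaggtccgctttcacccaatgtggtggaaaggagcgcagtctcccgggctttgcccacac
Pola1: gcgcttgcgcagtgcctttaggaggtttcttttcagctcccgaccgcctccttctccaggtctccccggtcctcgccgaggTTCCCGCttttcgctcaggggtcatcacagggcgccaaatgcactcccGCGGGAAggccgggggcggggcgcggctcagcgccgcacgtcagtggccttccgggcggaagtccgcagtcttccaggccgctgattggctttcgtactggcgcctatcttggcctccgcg
Prim1: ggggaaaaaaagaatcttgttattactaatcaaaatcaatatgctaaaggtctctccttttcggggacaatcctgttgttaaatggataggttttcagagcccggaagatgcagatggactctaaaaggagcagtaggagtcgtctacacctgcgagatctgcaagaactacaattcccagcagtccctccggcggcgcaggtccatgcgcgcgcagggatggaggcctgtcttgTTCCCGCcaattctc
The motif began 138 bases before the start in Cdc6 on the gene's own strand, 67 before it in Rrm1 and 15 before it in Prim1 on the opposite strand. Pola1 had 2 matches, at 169 bases on the opposite strand and at 121 on its own. Pola1, the catalytic subunit of DNA polymerase alpha, went from 14.6, 14.1 and 16.2 CPM to 101, 104 and 107 CPM (2.79, SE 0.207, edgeR adjusted p = 1e-07). Prim1, its primase partner, went from 21, 19.7 and 18.2 CPM to 110, 102 and 109 CPM (2.45, SE 0.147, edgeR adjusted p = 1.64e-08). The libraries of each time lay close together for both, with no overlap between times.

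Genes of mitosis had the highest median change of the 39 lists, 5.68, and 29 of 30 were called higher. Ube2c, the ubiquitin-conjugating enzyme of the anaphase-promoting complex (chromosome 2, 164769898 to 164778822), measured 1.26, 1.13 and 0.701 CPM in naive cells and 97.7, 94 and 120 CPM at 48 h (6.70, edgeR adjusted p = 7.39e-08). Tpx2, a spindle assembly factor, rose by 6.54 and Cdk1, the kinase that starts mitosis, by 6.49. The member not called was Smc4, a condensin subunit, with 560, 532 and 596 CPM in naive cells and 906, 887 and 678 CPM at 48 h (0.53, edgeR adjusted p = 0.0673), which was called without the mouse block and with KI mice alone. The E2F-type motif was in the 250 bases before the start of 0 of 26 mitosis genes with an entry, which says only that these letters are not in these windows.

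Among 28 tested cyclins, cyclin-dependent kinases, their inhibitors and E2F and RB genes, 16 were higher and 4 lower (median 1.06). The transcriptional repressors E2f8 and E2f7 rose by 5.32 and 5.08 and Ccna2, the S phase and mitotic cyclin, by 4.27, while the cyclin Ccnd1 changed by -1.55 and the inhibitor Cdkn1c by -1.87. After any 1 mouse was left out, 2 members were called lower. Of 27 nucleotide synthesis genes 22 were higher and 1 lower (median 1.11), and the lower call was lost without mouse 1 or mouse 3 and with no filter on low counts. The higher members included thymidylate synthase Tyms (4.25) and thymidine kinase Tk1 (3.40). Of 12 polyamine genes, 5 were higher and 1 lower (median 0.43), so the share called was near the 51.0% of all tested genes. The higher count was 3 with upper-quartile factors and without mouse 1 or mouse 3, and 8 with KI mice alone. Spermidine synthase Srm rose by 1.99 and ornithine decarboxylase Odc1 by 1.50.

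**Figure D2:**
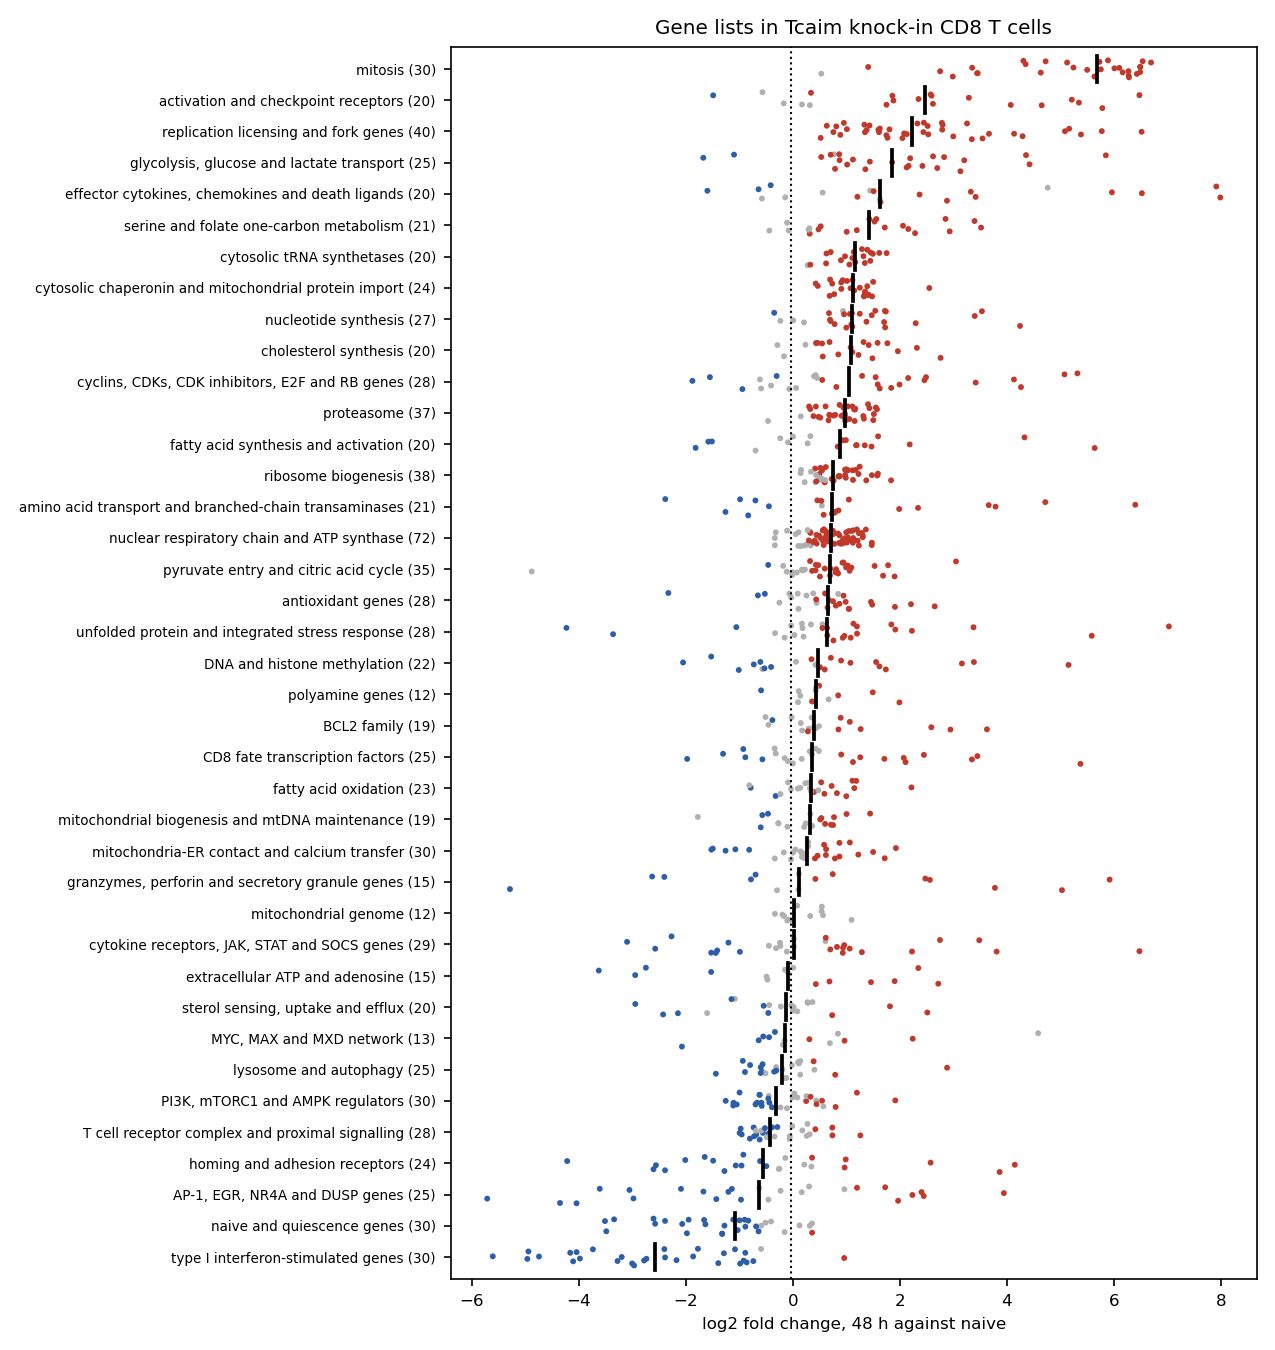
Log2 fold change at 48 h against naive for each tested gene of the 39 lists, with genes called higher in red, called lower in blue and not called in grey. The black bar is the list's median and the dotted line the median of all tested genes (-0.03). Mitosis genes lie farthest to the right, with a median of 5.68, and interferon-stimulated genes farthest to the left, with a median of -2.57.

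Genes of the naive and quiescent state mostly fell. Of 30 naive and quiescence genes 22 were called lower and 1 higher (median -1.07). Klf2, the transcription factor that sustains quiescence and S1pr1 expression (chromosome 8, 72319033 to 72321656), measured 545, 611 and 522 CPM in naive cells and 55, 45.2 and 48.5 CPM at 48 h, and fell by 3.51 on the log2 scale (SE 0.322, edgeR adjusted p = 7.83e-07). Il7r, the receptor for interleukin 7, went from 551, 553 and 578 CPM to 135, 67.3 and 91.2 CPM (-2.57, edgeR adjusted p = 0.000237). Neither gene overlapped between the groups. S1pr1, the receptor for egress from lymph nodes, changed by -2.60, Tsc22d3, a glucocorticoid-induced leucine zipper protein, by -3.34 and Igfbp4, a binding protein of insulin-like growth factors, by -3.48. Tcf7, the factor of naive and memory T cells, fell less, from 1538, 1541 and 1468 CPM to 873, 874 and 721 CPM (-0.89, edgeR adjusted p = 0.00103), and Foxo1, which drives Klf2 and Il7r, changed by -1.32. The member called higher was Ccr7, the lymph node homing receptor, at 506, 648 and 485 CPM and then 650, 785 and 666 CPM (0.36, edgeR adjusted p = 0.0482), and that call was lost in most other settings.

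Receptors of homing and adhesion mostly fell, with 13 of 24 lower and 6 higher (median -0.55). Ccr9, the gut homing receptor, measured 185, 194 and 215 CPM in naive cells and 33.5, 48.2 and 32.7 CPM at 48 h (-2.39, SE 0.235, edgeR adjusted p = 1.56e-06). The groups did not overlap, though exons of Ccr9 overlap other genes. Cd44, the adhesion receptor that marks antigen experience, rose by 2.58, the chemokine receptors Ccr8 and Ccr4 by 4.15 and 3.87, and the integrin chain Itgb1 by 0.99.

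Of 28 genes of the T cell receptor complex and its proximal signalling, 13 were lower and 4 higher (median -0.42). Cd8b1, the CD8 beta chain, changed by -0.97 and Prkcq, the kinase PKC theta, by -0.95, while Cblb, a ubiquitin ligase that restrains receptor signals, rose by 1.26 and the inhibitory receptor Cd5 by 0.74. The lower count was 8, 5 and 7 without mouse 1, 3 and 5, and the higher count 7 with KI mice alone.

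Immediate early genes split by member: of 25 AP-1, EGR, NR4A and DUSP genes, 7 were higher and 12 lower (median -0.62). By mouse the median change of this list was -0.81 in mouse 1, -1.04 in mouse 3 and 0.17 in mouse 5. Fos, an AP-1 subunit (chromosome 12, 85473890 to 85477273), measured 312, 370 and 352 CPM in naive cells and 5.41, 6.43 and 8.18 CPM at 48 h. It fell by 5.71 on the log2 scale (SE 0.221, edgeR adjusted p = 7.58e-10). Jun, its partner, went from 404, 447 and 297 CPM to 25.7, 26.5 and 42.8 CPM (-3.61), Fosb changed by -4.04 and the MAP kinase phosphatase Dusp1 by -4.35. Fos and Jun were thus high in all naive libraries and low in all 48 h libraries. Nr4a3, a nuclear receptor induced by T cell receptor signals, went the opposite way, from 11.9, 14.4 and 12.8 CPM to 113, 292 and 222 CPM (3.94, edgeR adjusted p = 2.4e-08). Nr4a2 rose by 2.45, Fosl1 by 2.41, Egr3 by 2.24 and Egr2 by 1.97.

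Activation and checkpoint receptors rose in 15 of 20 cases and fell in 1, or 2 with upper-quartile factors (median 2.46). Il2ra, the alpha chain of the interleukin 2 receptor (chromosome 2, 11642807 to 11693193), measured 2.24, 3.64 and 3.83 CPM in naive cells and 242, 242 and 382 CPM at 48 h. It rose by 6.48 (SE 0.373, edgeR adjusted p = 1.17e-08). Lag3, an inhibitory receptor for MHC class II, measured 1.63, 2.21 and 3.2 CPM and then 102, 150 and 136 CPM (5.79), and Pdcd1, which encodes PD-1, 1.07, 1.63 and 1.9 CPM and then 41.7, 71.6 and 74.6 CPM (5.35). Tnfrsf9, the costimulatory receptor 4-1BB, measured 8.38, 10.8 and 11.8 CPM and then 282, 430 and 444 CPM (5.21). For all 4 the lowest library at 48 h was far above the highest naive library. The member called lower was the early activation receptor Cd69, with 305, 403 and 307 CPM in naive cells and 98.8, 115 and 151 CPM at 48 h (-1.49). Tnfrsf1b (0.32), Cd27 (-0.17), Havcr2 (-0.57) and Cd274 (0.17) were not called.

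Cytotoxic genes did not move as a block: of 15 tested genes of granzymes, perforin and secretory granules (18 listed), 7 were higher and 5 lower, with 3 lower without the mouse block and without mouse 1. Their median was 0.12, and -0.07 with upper-quartile factors. Gzmb, granzyme B (chromosome 14, 56258838 to 56262260), measured 9.68, 14.6 and 11.1 CPM in naive cells and 499, 758 and 862 CPM at 48 h (5.92, SE 0.559, edgeR adjusted p = 1.03e-06). Gzma, granzyme A, which NK cells also express, went from 24.8, 42.3 and 40.2 CPM to 0.627, 1.18 and 0.981 CPM (-5.28, edgeR adjusted p = 2.52e-08). Both granzymes separated the groups without overlap, in opposite directions. Serpinb6b, a protease inhibitor, rose by 3.78. Prf1, the pore-forming perforin, measured 49, 61.5 and 73.4 CPM in naive cells and 25.9, 45.2 and 43.7 CPM at 48 h (-0.69, edgeR adjusted p = 0.0176), a call lost without the mouse block and without mouse 1 or mouse 5.

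Of 20 effector cytokines, chemokines and death ligands, 11 were higher and 3 lower (median 1.63), with 7 higher without mouse 5 and 0 lower without mouse 3. Xcl1, the chemokine that attracts cross-presenting dendritic cells, measured 5.23, 7 and 5.44 CPM in naive cells and 241, 324 and 644 CPM at 48 h (5.96). Tnfsf4, the ligand OX40L, measured 0.386, 0.202 and 0.11 CPM and then 15.6, 25.5 and 22.8 CPM (6.52). Both were without overlap. Ifng, interferon gamma, measured 3.57, 6.84 and 4.6 CPM and then 5.95, 8.85 and 33.2 CPM (1.45, edgeR adjusted p = 0.101), so its groups overlapped and only mouse 5 stood well above the naive range. Ccl4, a chemokine of activated T cells, measured 4.7, 9.28 and 6.51 CPM and then 33.6, 53.5 and 169 CPM (3.33, edgeR adjusted p = 0.00681), again highest in mouse 5, and its call was lost without that mouse.

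Of 25 transcription factors of CD8 T cell fate, 10 were higher and 5 lower (median 0.36). Irf4, which scales with receptor signal strength, measured 29.3, 40.5 and 25.8 CPM in naive cells and 258, 299 and 417 CPM at 48 h (3.35, SE 0.489). Zbtb32, a zinc finger repressor, rose by 5.38, Irf8 by 3.45 and Tbx21, which encodes T-bet, by 2.07, from 6.67, 10.1 and 7.32 CPM to 22.4, 33.3 and 44.2 CPM (edgeR adjusted p = 0.0062, a call lost without mouse 5). Id2, an inhibitor of E proteins in effector cells, measured 91.9, 94.3 and 84.8 CPM and then 40.8, 28.3 and 42 CPM (-1.30), and Prdm1, which encodes Blimp-1, changed by -1.97. Naive and 48 h libraries did not overlap for any of these. Among 29 cytokine receptor, JAK, STAT and SOCS genes 13 were higher and 8 lower. Il12rb2, an interleukin 12 receptor chain, rose by 3.49 and the feedback inhibitor Socs2 by 3.81, while Il6ra changed by -3.10 and Socs3 by -2.27. The median of that list (0.02) turned negative with the other scalings.

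Of 13 genes of the MYC, MAX and MXD network, 3 were higher and 5 lower (median -0.15), with 2 to 3 lower after any 1 mouse was left out. Myc, which drives growth, measured 173, 177 and 166 CPM in naive cells and 254, 314 and 474 CPM at 48 h, a rise of 0.97 (edgeR adjusted p = 0.000326). The groups did not overlap and mouse 5 was highest.

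Most genes of ribosome biogenesis, tRNA charging, protein folding and import, and the proteasome rose. Of 38 ribosome biogenesis genes 28 were higher and 0 lower (median 0.75). Ncl, nucleolin, measured 992, 1006 and 981 CPM in naive cells and 3323, 3251 and 4095 CPM at 48 h (1.84). Of 20 cytosolic tRNA synthetases 19 were higher (median 1.15), led by alanyl synthetase Aars (1.75). Of 24 genes of the cytosolic chaperonin and mitochondrial protein import, 24 were higher (median 1.13). Hspd1, the mitochondrial chaperonin HSP60, measured 97.6, 96.3 and 102 CPM in naive cells and 532, 516 and 700 CPM at 48 h (2.55), and Hspa9, the import motor of the matrix, rose by 1.50. Of 37 proteasome genes 35 were higher (median 0.97), with the core subunits Psma5 and Psma1 at 1.57 and 1.55. No member of these 4 lists was called lower by edgeR over all 22 libraries or by DESeq2, and 1 proteasome gene was lower at an unadjusted p under 0.05. With KI mice alone and with upper-quartile factors, edgeR called 1 proteasome gene lower. The naive libraries of Ncl and Hspd1 lay close together and the 48 h libraries were highest in mouse 5. Exons of both overlap other genes.

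Genes of glucose metabolism mostly rose. Of 25 genes of glycolysis, glucose and lactate transport 22 were higher and 2 lower (median 1.86). Hk2, the inducible hexokinase (chromosome 6, 82725025 to 82774454), measured 3.32, 4.81 and 4.41 CPM in naive cells and 74, 85 and 97 CPM at 48 h (4.36, SE 0.302, edgeR adjusted p = 5.12e-08). Slc16a3, the lactate exporter MCT4, went from 1.02, 2.04 and 2.38 CPM to 83.8, 111 and 110 CPM (5.85), and Ldha, lactate dehydrogenase A, from 261, 281 and 291 CPM to 1386, 1387 and 1712 CPM (2.42). These genes separated the groups without overlap. Slc2a1, the glucose transporter GLUT1, rose by 1.36, from 40.5, 43.3 and 33.1 CPM to 90, 88.5 and 121 CPM. The members called lower were a pair of low-expressed isoforms, the hexokinase Hk3 (-1.10) and the monocarboxylate transporter Slc16a7 (-1.67), and the call of Slc16a7 was lost without the mouse block and without mouse 3 or mouse 5.

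Of 21 genes of serine and folate one-carbon metabolism 16 were higher and 0 lower by edgeR (median 1.43), with 0 at an unadjusted p under 0.05, and with 1 lower by DESeq2 and by edgeR with KI mice alone or upper-quartile factors. Psat1, of serine synthesis, measured 28.6, 29 and 30.4 CPM in naive cells and 275, 265 and 390 CPM at 48 h (3.40), and Mthfd2, the mitochondrial folate enzyme, measured 24.7, 25.2 and 28.1 CPM and then 174, 171 and 254 CPM (2.93). Of 21 amino acid transporters and branched-chain transaminases 14 were higher and 6 lower (median 0.73), with 3 lower without mouse 3 or mouse 5. Bcat1, the cytosolic branched-chain transaminase, rose from 1.19, 0.954 and 1.44 CPM to 90.7, 84.4 and 130 CPM (6.40, SE 0.234, edgeR adjusted p = 5.79e-10), the transporters Slc6a9 and Slc1a4 by 4.72 and 3.79, and the lysosomal transporter Slc36a1 changed by -1.26.

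Most nuclear genes of the citric acid cycle and respiratory chain rose. Of 35 genes of pyruvate entry and the citric acid cycle 25 were higher and 1 lower (median 0.70). The lower member was the pyruvate dehydrogenase kinase Pdk1 (-0.46), whose call was lost after any 1 mouse was left out. The transaminase Got1 rose by 1.78. Of 72 nuclear genes of the respiratory chain and ATP synthase 59 were higher and 0 lower by edgeR (median 0.72), with 0 lower by DESeq2 and 0 at an unadjusted p under 0.05, but 1 lower by edgeR with upper-quartile factors and 1 without mouse 5. They ran from complex I (Ndufa12, 1.48) to cytochrome oxidase (Cox5a, 1.37). The members not called included the cytochrome c gene Cycs (-0.11). Of 12 tested transcripts of the mitochondrial genome (13 listed), 0 were called by edgeR over all libraries or by DESeq2, and 0 had an unadjusted p under 0.05. With KI mice alone edgeR called 1 of them higher. The median of that list was 0.03, and -0.15 with upper-quartile factors. mt-Co1, a cytochrome oxidase subunit, measured 8644, 9075 and 11276 CPM in naive cells and 9923, 9814 and 10941 CPM at 48 h (0.08, and -0.10 with upper-quartile factors, edgeR adjusted p = 0.805), with overlapping groups. Of 19 genes of mitochondrial biogenesis and DNA maintenance 8 were higher and 3 lower (median 0.33), with 6 lower under upper-quartile factors and 5 with KI mice alone. The protease Lonp1 rose by 1.45, and the coactivator Ppargc1b fell by 0.60 on the log2 scale.

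Contacts between mitochondria and the endoplasmic reticulum carry calcium from the inositol trisphosphate receptors through the VDAC channels into mitochondria. Of 30 genes of contact and calcium transfer 13 were higher and 5 lower (median 0.27). Vdac1 (chromosome 11, 52360860 to 52389397), the outer membrane channel, measured 82, 85.5 and 86.7 CPM in naive cells and 270, 261 and 306 CPM at 48 h (1.72, SE 0.145, edgeR adjusted p = 3.56e-07). The receptors fell: Itpr2 measured 238, 225 and 207 CPM and then 85.5, 82.4 and 66.3 CPM (-1.52), Itpr3 changed by -1.26 and Itpr1 by -0.81. The channel and the receptors thus moved apart, each without overlap for Vdac1 and Itpr2. Osbpl5, a lipid transfer protein, changed by -1.49 and the sorting protein Pacs2 by -1.07, and Mcub, the inhibitory subunit of the calcium uniporter, by 1.93. The fusion proteins Mfn1 (0.24, edgeR adjusted p = 0.166) and Mfn2 (0.29, edgeR adjusted p = 0.0548) were not called, though both were with KI mice alone.

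Cholesterol synthesis genes rose: 17 of 20 were called higher and 0 lower by edgeR (median 1.10), with 1 lower by DESeq2 and 1 at an unadjusted p under 0.05. Cyp51, the lanosterol demethylase (chromosome 5, 4081145 to 4104746), measured 20.1, 19.1 and 20.7 CPM in naive cells and 112, 157 and 141 CPM at 48 h (2.76, SE 0.205, edgeR adjusted p = 9.78e-08). No naive library reached the 48 h range of Cyp51. Idi1, the isomerase of isopentenyl diphosphate, and Sqle, squalene epoxidase, rose by 2.32 and 1.96. Mvd, the decarboxylase of mevalonate diphosphate, was not called, at 22.9, 23.3 and 19.2 CPM and then 16.9, 19.7 and 17.1 CPM (-0.29, edgeR adjusted p = 0.0837), though it was called lower by DESeq2 and with the other scaling factors. Among 20 genes of sterol sensing, uptake and efflux 3 were higher and 6 lower (median -0.12). The share called, 45.0%, was below the 51.0% of all tested genes. The lower count was 3 without mouse 1, and the higher count 6 with KI mice alone. The cholesterol exporter Abca1 changed by -2.94 and the ubiquitin ligase Mylip by -2.42, while the sterol carrier Stard4 rose by 1.82.

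Of 20 tested genes of fatty acid synthesis and activation (21 listed) 11 were higher and 3 lower (median 0.89), with 5 lower with KI mice alone or upper-quartile factors. The desaturase Scd2 measured 98, 98.1 and 80 CPM in naive cells and 381, 706 and 276 CPM at 48 h (2.19), and was highest in mouse 3. Acss2, which makes acetyl-CoA from acetate, changed by -1.51. Of 23 fatty acid oxidation genes 10 were higher and 2 lower (median 0.34), so 52.2% were called, near the 51.0% of all tested genes. The lower count was 1 without mouse 1 or mouse 3 and with no filter on low counts, and 0 without mouse 5. The dehydrogenase Acadl rose by 1.19, and the carnitine transferase Cpt1a fell by 0.79 on the log2 scale, a call lost without mouse 5.

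Interferon-stimulated genes had the lowest median of the 39 lists, -2.57 (markers of other cells are not among these lists), with 28 of 30 called lower and 1 higher. Oas2, an antiviral oligoadenylate synthetase, measured 294, 272 and 250 CPM in naive cells and 5.66, 5.71 and 5.38 CPM at 48 h (-5.61, edgeR adjusted p = 5.74e-08). Oas3 (chromosome 5, 120753098 to 120777661), of the same family, measured 186, 182 and 193 CPM and then 25.5, 25.5 and 21.2 CPM (-2.96, SE 0.146, edgeR adjusted p = 4.01e-09). In both genes the 3 mice fell together. The antiviral proteins Rsad2 and Mx2 changed by -4.96 and -4.94, and Usp18, which restrains the interferon receptor, by -2.17. The copies of the Oas family are similar in sequence, and how reads shared between them were counted is not given in the sources used here.

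Of 28 genes of the unfolded protein and integrated stress responses 16 were higher and 3 lower (median 0.64). Asns, given above, Chac1 (5.59) and Trib3 (3.38) rose, which are targets of ATF4, while Ppp1r15a, a phosphatase subunit, went from 643, 613 and 367 CPM to 26.5, 27 and 34 CPM (-4.23) and the chaperone partner Dnajb9 changed by -3.36. Of 19 tested BCL2 family genes (20 listed) 8 were higher and 1 lower (median 0.39). The share called, 47.4%, was below the 51.0% of all tested genes. The lower call was lost without the block, with no filter on low counts and after any 1 mouse was left out, while KI mice alone gave 3 lower and upper-quartile factors 2. Bcl2l1, which encodes BCL-XL, measured 11.6, 15.5 and 15.2 CPM in naive cells and 68.3, 72.6 and 117 CPM at 48 h (2.59). Bcl2a1d and Bcl2a1b rose by 3.63 and 2.95, with reads that near-identical copies may share.

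Of 28 antioxidant genes 16 were higher and 3 lower (median 0.66). Txn1, thioredoxin, measured 37.5, 40.1 and 39.6 CPM in naive cells and 230, 222 and 289 CPM at 48 h (2.65), and heme oxygenase Hmox1, abundant in macrophages, changed by -2.32. Among 15 genes of extracellular ATP and adenosine 6 were higher and 4 lower (median -0.09, and 0.15 without mouse 3). The nucleoside transporter Slc29a1 rose by 2.35 and adenosine kinase Adk by 1.90, while the ATP-gated channel P2rx7 went from 17, 18 and 18.3 CPM to 2.67, 1.99 and 3.36 CPM (-2.74, SE 0.249, edgeR adjusted p = 7.04e-07).

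Regulators of PI3K, mTORC1 and AMPK were 14 lower and 7 higher of 30 (median -0.31), with 6 to 8 lower after any 1 mouse was left out and 2 higher without mouse 1 or mouse 3. Rictor, of mTOR complex 2, fell by 1.25 on the log2 scale and Sesn2, a leucine sensor, rose by 1.92. Of 25 lysosome and autophagy genes 10 were lower and 3 higher (median -0.19), with 5 lower without mouse 1 or mouse 3. The share called, 52.0%, was near the 51.0% of all tested genes. Map1lc3b, of the autophagosome membrane, changed by -1.44 and its relative Gabarapl1 by 2.88. Of 22 genes of DNA and histone methylation 12 were higher and 7 lower (median 0.47), with 3 to 4 lower after any 1 mouse was left out. Uhrf1, which guides maintenance methylation, measured 8.73, 9.22 and 9.88 CPM in naive cells and 336, 314 and 340 CPM at 48 h (5.15), and the histone methyltransferase Ezh2 rose by 3.16, while Kmt2d and Tet1 changed by -1.52 and -2.05.

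The 24 h libraries of the same mice show when the lists moved. At 24 h 8781 genes (41.5%) were called against naive, and between 24 h and 48 h 807 (3.81%), 535 higher and 272 lower. That last count fell to between 22 and 249 when 1 mouse was left out. Both 24 h and 48 h were compared with the same naive libraries, so their values are given side by side. Summed over the replication list, CPM was 1548, 1589 and 1541 naive, 6020, 7056 and 5394 at 24 h and 6735, 6682 and 7224 at 48 h. Most of the rise in this sum was present at 24 h, and mouse 3 was higher at 24 h than at 48 h. The mitosis sum was 742.6, 712.5 and 799.3 naive, 2601, 3775 and 1968 at 24 h and 5911, 6090 and 5275 at 48 h, and 29 of 30 members were called higher at 48 h than at 24 h, among them Ube2c (3.19, edgeR adjusted p = 0.00124). The glycolysis sum was 1841, 1947 and 1886, then 4386, 5091 and 4623, then 7506, 7698 and 8855, with 13 of 25 members called higher between 24 h and 48 h. Both sums rose in all 3 mice over each interval. Gzmb had means of 11.8, 60 and 706 CPM at the 3 times (3.78 between 24 h and 48 h, edgeR adjusted p = 0.00165), and 12 of 20 activation receptors were called higher over that interval. The interferon-stimulated sum fell from 4835, 4751 and 4941 to 2932, 3279 and 2625 and then 2888, 2201 and 2555, with 2 of 30 members called lower between 24 h and 48 h.

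**Figure D3:**
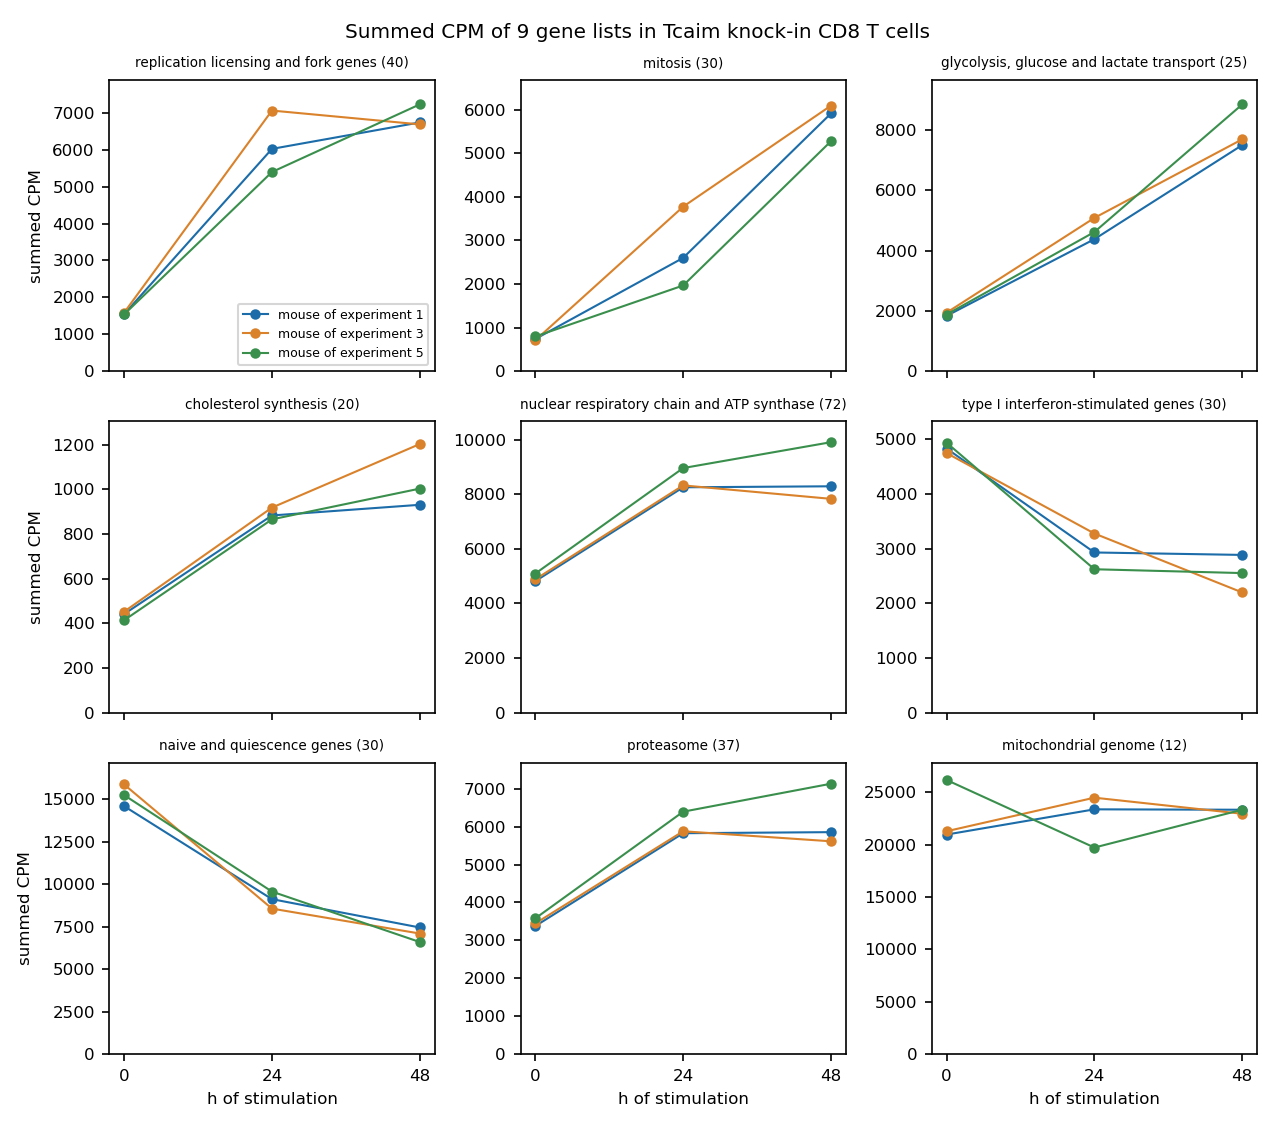
Summed CPM of 9 lists in KI cells at 0, 24 and 48 h, with 1 line per mouse. The mitosis sum at 48 h (5275 to 6090) is above every 24 h value (1968 to 3775). From naive to 24 h the mitochondrial genome sum rose in mouse 1 (20950 to 23359) and mouse 3 (21268 to 24471). It fell in mouse 5 (26160 to 19711), and at 48 h it was 22936 to 23325.

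Among the 3 mice at 48 h, mouse 5 was most often the highest. Of 10405 genes with at least 10 CPM in a KI 48 h library, 5093 were highest in mouse 5, 2782 in mouse 1 and 2530 in mouse 3. The 48 h library of mouse 5 also had the lowest TMM factor (0.948, against 0.994 in mouse 1 and 1.015 in mouse 3). A lower factor gives higher CPM, and its part in these counts was not tested. The highest mouse exceeded the lowest more than 3-fold in 49 genes, and the highest was mouse 5 in 25 of them. Ccl3, a chemokine of the same family as Ccl4, measured 26.6, 41.7 and 162 CPM at 48 h, and mouse 5 was the highest as for Ifng and Ccl4. Lars2, the mitochondrial leucyl-tRNA synthetase, measured 729, 478 and 626 CPM in naive cells and 3321, 507 and 1181 CPM at 48 h, and mouse 1 stood apart. Without mouse 1 its change of 1.14 was 0.50 and was not called. Mouse 5 was the only female of the 3 and came from its own experiment, so sex, experiment and mouse cannot be told apart.

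The wt mice of the same line give the response of wt cells to the same stimulation and culture. Of the genes called in KI cells, 9294 were also called in wt cells in the same direction, which is 86% of the KI calls and 75.3% of the 12339 wt calls, and 17 were called in opposite directions. The difference between the KI and wt changes was called for 187 genes (0.883%), 100 higher and 87 lower, and for 82 without the mouse block. In 128 of the 187 the KI change had the same sign as in wt and was smaller, in 25 it was larger and in 34 the sign differed. Fits with 1 of the 6 mice left out gave between 1 and 198 calls, and they kept between 1 and 113 of the 187. Oas3 was the named gene whose difference was called in every one of these fits: in wt mice it measured 60.6, 72.5 and 57.7 CPM in naive cells and 33.6, 48.4 and 32.6 CPM at 48 h, and the KI change was lower, by a log2 difference of -2.22 (edgeR adjusted p = 0.000293). KI cells thus started above wt cells in this gene and ended below them in these libraries.

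The lists with most differences were cholesterol synthesis and interferon-stimulated genes. In cholesterol synthesis the KI change was lower than the wt change in 11 of 20 members (median 1.10 in KI, 2.29 in wt). Pmvk, the phosphomevalonate kinase, measured 22.2, 28.4 and 26.2 CPM at 48 h in KI and 65.1, 68.4 and 64.4 CPM in wt, from 10.7, 11.1 and 10.8 CPM and 10.8, 11.1 and 11.1 CPM naive (edgeR adjusted p = 0.00608). The naive levels overlapped and the 48 h levels did not overlap. That count was 7 without the block, 0, 5 and 1 without KI mouse 1, 3 and 5, and 0, 6 and 12 without wt mouse 1, 3 and 5. Of 30 interferon-stimulated genes, 7 had a lower KI change (median -2.57 in KI, -1.21 in wt), and 1, 2 and 1 without KI mouse 1, 3 and 5 and 1, 8 and 5 without wt mouse 1, 3 and 5. The count was 13 with KI and wt mice alone, 13 by DESeq2 and 11 with no filter on low counts. The B cell markers Pax5, Cd79a, Ms4a1 and Iglc2, the gamma-delta marker Trdc and the NK marker Klrb1c were also called, each with a smaller fall in KI, and the part of such cells in the other differences was not tested.

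**Figure D4:**
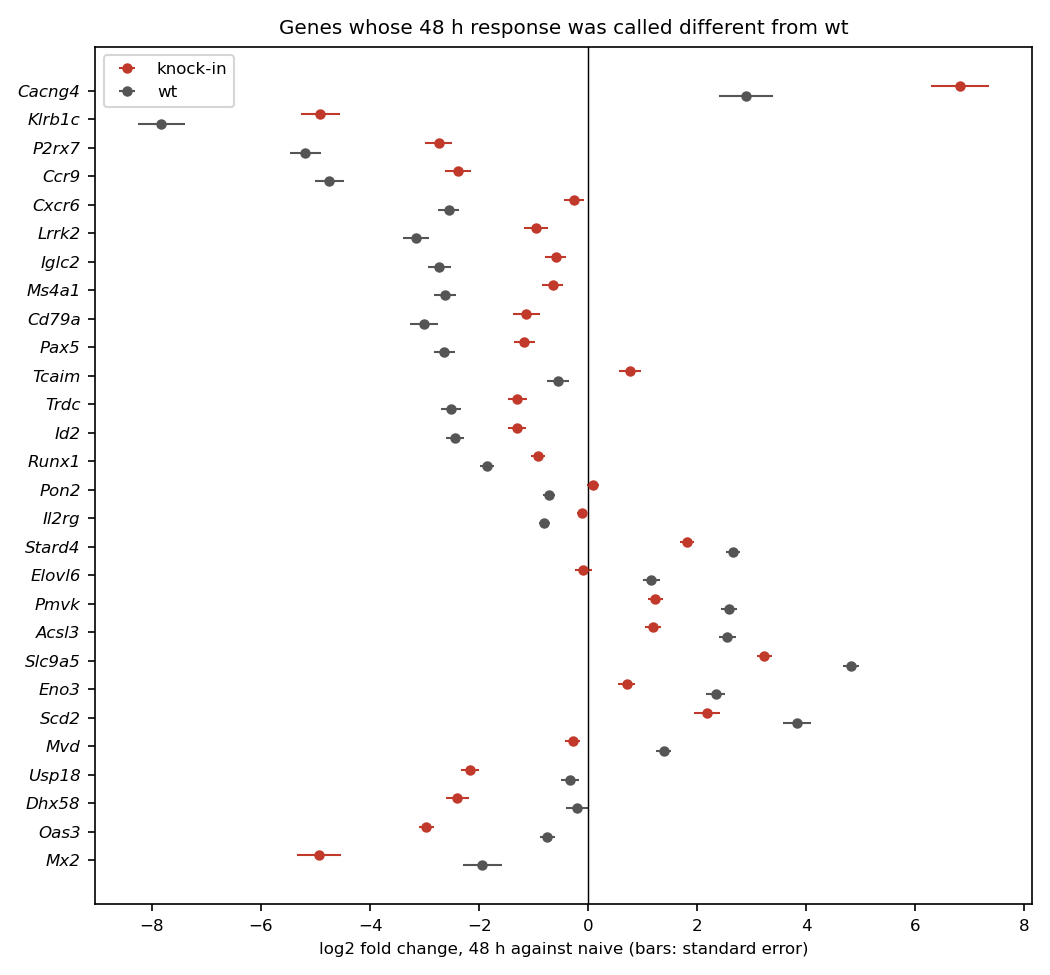
Log2 fold change at 48 h against naive in KI and in wt cells, with standard errors, for the 28 named genes whose KI and wt changes differed. Oas3 changed by -2.96 in KI and -0.75 in wt, Pmvk by 1.23 and 2.58, and Ccr9 by -2.39 and -4.75.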

How the data were processed

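Read counts per gene and FPKM values were deposited by the authors for 22 libraries of CD8 T cell RNA. Per the labels' protocols, 100 ng of RNA (RIN 7.7 to 9.4) went into TruSeq stranded mRNA libraries, read as paired ends of 75 nt on an Illumina HiSeq. Per the submitters' processing notes, bcl2fastq 2.20.0, TopHat2 2.1.0, Bowtie2 2.2.5, SAMtools 0.1.19, featureCounts and DESeq2 1.6.3 were used with GRCm38 (mm10). The annotation and strand setting of the counting are not given in the sources used here, and of 287 named genes 89 have an exon that overlaps another gene, on the same strand in 19 and on the opposite strand in 75.

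The counts as deposited were tested with edgeR 4.0.16 (R 4.3.3, quasi-likelihood F test) over all 22 libraries, with TMM factors, the mouse as a block and time effects per genotype (9 residual degrees of freedom). filterByExpr (minimum count 10, total 15) kept 21183 of 30301 genes with a count. Of these, 14321 had a symbol in the deposited tables, 6713 took one from the annotation and 149 had none. Table positions were checked against GENCODE vM21, where 13916 of 14321 had the same start. The FPKM table was used for Tcaim only. The pairing comes from the labels, which name the mouse. Deviations of log2 CPM from the group mean correlated at 0.393, 0.25 and 0.49 for libraries of the same KI mouse. Those of different mice correlated at -0.403 to 0.147. The deviations within a group add up to 0, so these correlations depend on each other. Each mouse had its own experiment, so they cannot tell mouse from experiment.

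Genes were named by a rule. It took Tcaim and the 8 largest called changes in each direction. These changes needed at least 10 CPM in the higher group and the same direction in 3 mice. It also took up to 3 per direction from each of 39 lists and 10 marker lists, and members called against their list's majority. Of the genes called in the KI and wt difference it took only those of smallest p, per list and in each direction. The 4 genes with most reads at each time completed the rule. A further 17 were chosen after their values were seen (Ifng, Ccl3, Ccl4, Lars2, Smc4, Tbx21, Slc2a1, Ldha, Mfn1, Mfn2, Foxo1, Tnfrsf9, Jun, Xcl1, Rrm1, Pola1 and Prim1), as were the remaining uncalled members named. Some genes that the rule picked are not reported here, though the list counts include them. The libraries and lists were chosen with earlier results of these data known. Alternatives were no block, KI mice only, other scaling factors, no filter on low counts, DESeq2 1.42.0, genes of the deposited normalized table only, and leaving out each mouse. Sequences came from RefSeq promoter entries of GRCm38.p6.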

Additional observations from a re-analysis of the deposited data

Results flagged for a closer look

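The 28 named genes given here are those whose change from naive to 48 h differed between KI and wt mice in the test of the difference itself (edgeR adjusted p under 0.05, 3 mice of each genotype). Values are the KI change minus the wt change on the log2 scale. The difference was positive in 16 and negative in 12.

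Among lipid genes the KI change was lower for Mvd (-1.67), Pmvk (-1.35) and Stard4 (-0.85), and for the fatty acid genes Scd2 (-1.64), Acsl3 (-1.36) and Elovl6 (-1.25). Mvd measured 61.4, 56.8 and 44.7 CPM at 48 h in wt mice and 16.9, 19.7 and 17.1 CPM in KI mice, from overlapping naive levels. Among interferon-stimulated genes it was lower for Mx2 (-3.00), Oas3 (-2.22), Dhx58 (-2.20) and Usp18 (-1.84). Dhx58 measured 76.5, 74.3 and 73.3 CPM in naive KI cells and 25.5, 33.9 and 26.3 CPM in naive wt cells. At 48 h it measured 13.8, 14.9 and 13.7 CPM in KI mice and 22.4, 24 and 28.9 CPM in wt mice, so KI mice were above wt mice before stimulation and below them after it. The enolase Eno3 (-1.63) and the sodium-proton exchanger Slc9a5 (-1.59) also had a lower KI change.

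The KI change was higher for the homing receptors Ccr9 (2.36) and Cxcr6 (2.30), the ATP-gated channel P2rx7 (2.45), the calcium channel subunit Cacng4 (3.93), the kinase Lrrk2 (2.2), the regulators Id2 (1.14) and Runx1 (0.93), the common gamma chain Il2rg (0.69), the lactonase Pon2 (0.81) and Tcaim (1.33). Cxcr6 measured 56.4, 50.6 and 57.5 CPM at 48 h in KI mice and 9.46, 12.7 and 14.9 CPM in wt mice. It was also higher for genes of other lymphocytes, the B cell genes Iglc2 (2.14), Ms4a1 (1.97), Cd79a (1.88) and Pax5 (1.47), Klrb1c of NK cells (2.92) and Trdc of gamma-delta T cells (1.21). The part of such cells in the other differences was not tested.

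Of the 28 calls, 16 held without the mouse block. When 1 mouse was left out, 1, 14 and 6 held without KI mouse 1, 3 and 5, and 2, 21 and 20 without wt mouse 1, 3 and 5. Oas3 was called in all of these fits, and Trdc in none of the fits with 1 mouse left out.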

How the results depend on the processing

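No gene called at 48 h against naive changed direction in any alternative in which it was tested. The calls were 10312 without the block (10043 of 10813 kept), 12905 with KI mice alone and 11385 by DESeq2. With 1 mouse left out they were 7790 to 7949, with 3208 to 3401 lower. The block paired libraries of the same mouse. Upper-quartile factors moved the median of all genes to -0.21, the largest shift of the alternatives.

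Between 24 h and 48 h the calls were 2894 with KI mice alone (1479 higher, 1415 lower) and 1586 by DESeq2 (993 and 593). With 1 mouse left out they were 22 to 249, with 19 to 223 higher and 3 to 26 lower. At 24 h against naive they were 5524 to 6701, with 1968 to 2480 lower. For the difference between KI and wt changes they were 82 without the block (29 higher, 53 lower), 489 with KI and wt mice alone (290 and 199), 748 by DESeq2 (440 and 308), and 174 higher with no filter on low counts. With 1 mouse left out they were 1 to 198, with 0 to 120 higher and 1 to 78 lower. The cause of these shifts was not tested, but a fit with 1 mouse left out has fewer samples.

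Signs turned only in genes that were not called. Pon2 was -0.088 and mt-Co1 -0.10 with upper-quartile factors. Eef1a1 (0.02) was -0.16 with those factors, -0.033 with median-of-ratios factors and by DESeq2, -0.028 with the listed genes alone and -0.036 with library size alone. mt-Cytb (-0.03) was 0.0059 with no filter. With 1 mouse left out Elovl6 ranged from -0.30 to 0.16, Eef1a1 from -0.021 to 0.070 and mt-Cytb from -0.080 to 0.10. The cause was not tested.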
